A study of Mus musculus with 8 samples.

Results

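Expression of 8 genes of the cholesterol synthesis pathway was examined in both sequencing experiments of a study of auranofin, an oral gold compound, in mouse liver fibrosis. The genes were taken by symbol, and all 8 were found among the 18645 genes listed for activated hepatic stellate cells (AHSC) and the 17408 genes listed for bone marrow derived macrophages (BMDM). Hmgcs1, Idi1, Fdps, Sqle, Lss and Cyp51 encode enzymes of the pathway, and Insig1 and Srebf2 encode regulators of it. None of the 8 genes mediates cholesterol uptake, so they are described here as synthesis and regulator genes. By the RefSeq annotation of GRCm38.p6, which is mm10, the enzyme genes lie at chr13:119690351-119708260 (Hmgcs1), chr13:8885606-8892396 (Idi1), chr3:89093588-89101967 (Fdps), chr15:59315092-59331193 (Sqle), chr10:76531565-76557139 (Lss) and chr5:4080674-4104697 (Cyp51), and the regulator genes at chr5:28071412-28078662 (Insig1) and chr15:82147269-82205379 (Srebf2). The AHSC were primary cells from livers of C57BL/6 mice, isolated by density gradient and either controls (untreated by the sample labels, vehicle by the study) or treated with 0.03 µM auranofin, for 12 h by the description of the study. The BMDM were grown from bone marrow of 8-week-old C57BL/6 mice with M-CSF for 7 days, and every BMDM library, controls included, came from cells given both ATP at 1 mM and LPS at 100 ng/mL. Auranofin was given to BMDM at 0.1 µM by the sample labels and 0.3 µM by the study, for 1 h. Each group had 2 libraries. Whether the libraries of a group came from separate mice or cultures is not stated in the sources used here, so the p-values measure only the spread between these libraries, which may be technical.

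Cholesterol is built from acetyl-CoA through mevalonate, isoprenoid units, squalene and lanosterol. When the endoplasmic reticulum membrane is poor in sterol, Insig proteins release the SCAP escort protein, and the transcription factor SREBP-2, the product of Srebf2, is carried to the Golgi, cleaved and sent to the nucleus, where it switches on most genes of the pathway and Insig1 itself. Oxysterols hold this route back and activate the nuclear receptor LXR, which drives cholesterol export. Stellate cells and macrophages both take up and store sterols, and sterol load is known to alter the activation of both.

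The DNA before the start of these genes is shown first, because SREBP-2 is known to act there through short sterol elements, beside CCAAT boxes that bind NF-Y. RefSeq windows of GRCm38.p6 with 250 bases before a transcript start were matched for 6 of the 8 genes, all but Fdps and Sqle. The Lss window, chr10:76531355-76531604, runs past the start of the gene given above. The letters searched were chosen after the windows had been seen, and a match is a description of the letters only. Both strands were searched for TCACCCCA, ATCACNCCA and ATCACNNCA as forms of the sterol element, where the first can lie inside the others. CCAAT for the NF-Y box, CACGTG for the E box and GGGCGG for the GC box were searched in the same way. In the 4 windows printed here, chosen because they hold a sterol element form or the E box, capitals mark sterol element letters and CCAAT boxes, which read ATTGG on the opposite strand. The windows are Hmgcs1 at chr13:119690101-119690350 (plus strand), Srebf2 at chr15:82147019-82147268 (plus strand), Cyp51 at chr5:4104698-4104947 (minus strand) and Insig1 at chr5:28071162-28071411 (plus strand), each printed 5′ to 3′ on the strand of its gene.
Hmgcs1: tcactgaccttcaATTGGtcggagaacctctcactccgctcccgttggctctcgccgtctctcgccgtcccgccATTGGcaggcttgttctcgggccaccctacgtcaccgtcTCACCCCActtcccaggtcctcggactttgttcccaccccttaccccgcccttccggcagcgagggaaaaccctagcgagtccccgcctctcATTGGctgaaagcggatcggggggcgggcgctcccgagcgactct
Srebf2: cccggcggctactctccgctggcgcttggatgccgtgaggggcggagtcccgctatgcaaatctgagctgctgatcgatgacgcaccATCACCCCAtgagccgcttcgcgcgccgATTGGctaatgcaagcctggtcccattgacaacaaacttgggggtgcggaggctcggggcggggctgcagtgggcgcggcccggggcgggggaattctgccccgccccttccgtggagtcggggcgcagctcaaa
Cyp51: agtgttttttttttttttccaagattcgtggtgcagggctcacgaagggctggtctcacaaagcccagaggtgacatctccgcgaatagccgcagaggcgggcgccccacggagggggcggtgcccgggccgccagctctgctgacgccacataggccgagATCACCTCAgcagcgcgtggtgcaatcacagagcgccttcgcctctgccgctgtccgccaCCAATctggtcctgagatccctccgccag
Insig1: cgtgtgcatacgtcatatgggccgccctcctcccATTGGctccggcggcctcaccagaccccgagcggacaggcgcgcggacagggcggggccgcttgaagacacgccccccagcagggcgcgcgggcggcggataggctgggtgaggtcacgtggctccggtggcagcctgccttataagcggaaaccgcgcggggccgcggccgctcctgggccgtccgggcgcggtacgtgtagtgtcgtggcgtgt

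TCACCCCA was present in the Hmgcs1 and Srebf2 windows, 137 and 162 bases before the start, and in 1.34% of all 32851 windows of this length. ATCACNCCA was present in the Srebf2 window and in 0.712% of all windows. ATCACNNCA was present in the Cyp51 window, 89 bases before the start, in the Srebf2 window, where the 3 forms overlap, and in 2.3% of all windows. CCAAT was present in 6 of the 6 windows, against 33.8% of all windows, and GGGCGG in 6 of the 6, against 32.7%. CACGTG was present in the Insig1 window, 101 bases before the start, and in 6.02% of all windows.

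The deposited values are FPKM, in which the authors had scaled fragments to transcript length and to the library total. Estimated depths were 29900000 to 39400000 fragments in AHSC and 27500000 to 35000000 in BMDM. The AHSC auranofin libraries differed from each other at least 2-fold in 19 of the 6430 genes averaging 10 FPKM or more, and the control libraries in 13. The BMDM auranofin libraries differed that much in 383 of 4245 genes and the control libraries in 14, so the BMDM values of the 8 genes are given for each library. The stellate gene Col1a1, a collagen chain, stood at 926.7 to 1075 FPKM in AHSC, but the macrophage genes Lyz2 and Cd68 stood at 5379 to 5554 and 644.8 to 669.6 FPKM in the same libraries, so macrophage transcripts were abundant in the cells labelled AHSC. Lrat, the retinol acyltransferase of stellate cells, stood at 1.70 to 2.85 FPKM there. In BMDM, Lyz2 and Cd68 stood at 3625 to 4278 and 1755 to 1920 FPKM.

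In AHSC all 8 genes had a lower mean with auranofin, by small amounts. The ratio of the auranofin mean to the control mean ran from 0.841 for Lss to 0.977 for Insig1. None of the 8 passed the test over all genes, which called 2.33% of the 12149 genes tested, 1.09% lower and 1.24% higher (limma, Benjamini-Hochberg adjusted p under 0.05). The adjusted p ran from 0.0636 to 0.743. An unadjusted p under 0.05 was found for 6 of the 8 genes, all lower, against 17.8% of all genes tested in either direction and 9.22% lower. Both auranofin libraries lay under both control libraries in 7 of the 8 genes, against 23.9% of all genes tested, and over both in 0 of the 8, against 26.2%. The log2 fold change was negative in 8 of 8, against 47.8%. None of the 8 was past 1.5-fold with an unadjusted p under 0.05, against 0.576% of all genes tested. Their median log2 fold change was -0.14, on the log2(FPKM + 1) scale used for every fold change here, and that of all genes tested was 0.005. By library, the median difference of the 8 from the control mean was -0.039 and 0.039 in controls and -0.159 and -0.143 with auranofin.

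**Figure D1:**
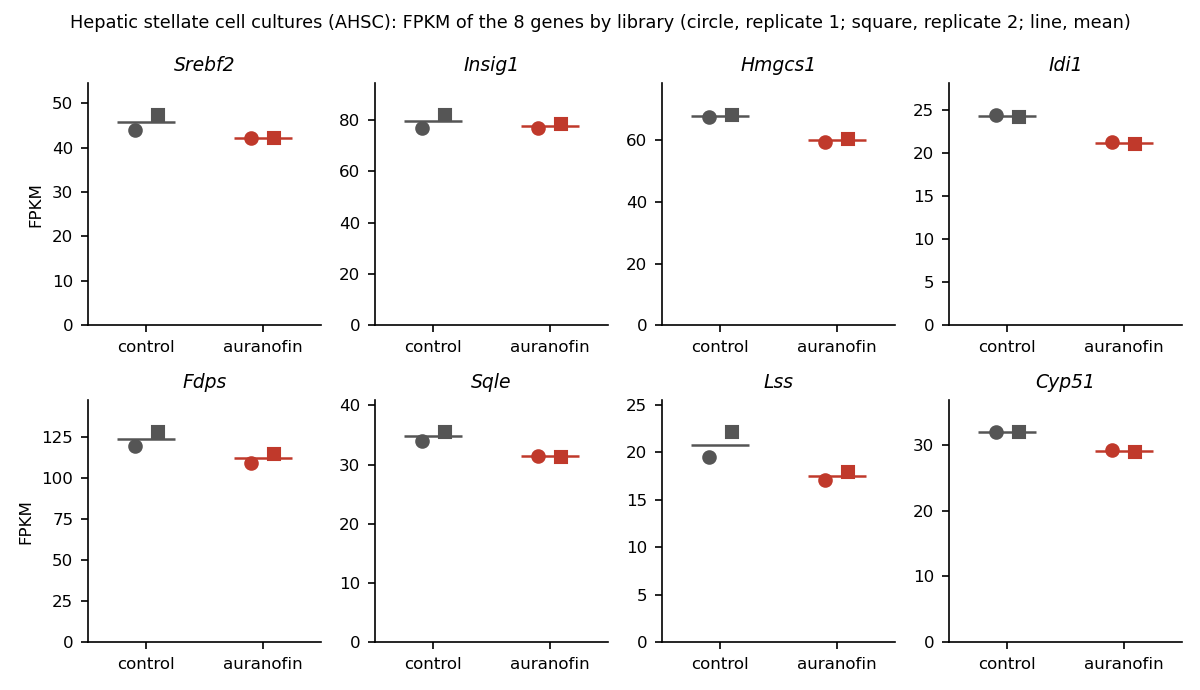
FPKM of the 8 genes in the 4 AHSC libraries, with a point for each library and a line for the mean of each group. Both auranofin points lie under both control points for 7 genes, and the groups overlap for Insig1.

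Hmgcs1, the synthase that makes HMG-CoA at the head of the pathway, stood at 67.5 and 68.4 FPKM in AHSC controls and 59.6 and 60.3 FPKM with auranofin. The groups were separate, and the log2 fold change was -0.18 (SE 0.033, limma adjusted p = 0.0636). Idi1, the isomerase of the isoprenoid units, stood at 24.5 and 24.2 FPKM in controls and 21.3 and 21.1 FPKM with auranofin. The Idi1 libraries of each group were close together, and the log2 fold change was -0.19 (SE 0.037, limma adjusted p = 0.0667). Fdps, which joins those units into farnesyl diphosphate, stood at 119.6 and 128.3 FPKM in controls and 109.6 and 114.6 FPKM with auranofin. The Fdps groups were separated by less than the gap between the control libraries, and the log2 fold change was -0.14 (SE 0.047, limma adjusted p = 0.202), or -0.09 without control replicate 2. The levels of Fdps and Idi1 are uncertain, because transcripts of other annotated genes share 929 and 684 bases with them at 100% identity, and reads could have been split between the copies.

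The enzymes of the sterol branch had the same sign. Sqle, the squalene epoxidase that controls the rate of this branch, stood at 34.0 and 35.5 FPKM in controls and 31.4 and 31.4 FPKM with auranofin (log2 fold change -0.14, SE 0.039, limma adjusted p = 0.146). Lss, which closes the ring to give lanosterol, stood at 19.5 and 22.2 FPKM in controls and 17.1 and 18.0 FPKM with auranofin. Lss had the lowest ratio of the 8 over all 4 libraries, with a log2 fold change of -0.24 (SE 0.068), but its control libraries were also apart, and the limma adjusted p was 0.162. Without control replicate 1, Lss passed the test (log2 fold change -0.32, limma adjusted p = 0.0203), and without control replicate 2 its log2 fold change was -0.15 (limma adjusted p = 0.333), smaller in size than that of Idi1. Cyp51, the lanosterol demethylase, stood at 31.9 and 31.9 FPKM in controls and 29.2 and 28.8 FPKM with auranofin (log2 fold change -0.13, SE 0.036, limma adjusted p = 0.144).

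The regulator genes had the smallest differences of the 8 in AHSC over all 4 libraries, an order that did not hold without control replicate 1. Srebf2 stood at 43.9 and 47.4 FPKM in controls and 42.1 and 42.2 FPKM with auranofin, with a log2 fold change of -0.11 (SE 0.047, limma adjusted p = 0.294). The log2 fold change of Srebf2 was -0.17 without control replicate 1 and -0.06 without control replicate 2. Insig1, which holds SCAP in the endoplasmic reticulum, stood at 76.8 and 82.2 FPKM in controls and 76.8 and 78.5 FPKM with auranofin. The Insig1 groups overlapped, the log2 fold change was -0.03, and its 95% interval ran from -0.14 to 0.08. Without control replicate 2 the log2 fold change of Insig1 was 0.015. An exact two-sided permutation test of 2 libraries against 2 cannot go under 0.333, so no single gene could pass such a test.

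Cell type markers were measured beside these values. Among all genes tested in AHSC, 23.9% lay lower in both auranofin libraries than in both controls, 26.2% lay higher and 2.33% were called. The summed level of 8 stellate markers was 3152 and 3320 FPKM in AHSC controls and 2730 and 2841 FPKM with auranofin. Of these markers, 5 lay lower in both auranofin libraries, 1 lay higher in both, and Acta2, the smooth muscle actin of activated stellate cells, was called lower (log2 fold change -0.38, limma adjusted p = 0.00719). The summed level of 8 macrophage markers was 7208 and 7232 against 7114 and 7101 FPKM, with 3 of the 8 lower and 1 higher in both auranofin libraries, the latter being Clec4f, a Kupffer cell lectin, which was called. The summed level of 6 endothelial markers was 175.3 and 169.8 against 178.8 and 167.9 FPKM, with 2 of the 6 lower in both auranofin libraries (Stab2 and Clec4g, both of liver sinusoids and both called) and 2 higher in both (Cdh5 and Kdr, not called). Of 6 hepatocyte markers, 5 stayed under 1 FPKM in all 4 libraries, and Apoa1 and Cps1 were at 0 in both auranofin libraries. Of 4 markers of other blood cells, 3 stayed under 1 FPKM. The fourth, S100a8, a neutrophil and monocyte gene, differed widely between the auranofin libraries. It stood at 6.87 and 4.32 FPKM in controls and 3.75 and 23.64 FPKM with auranofin. In bulk samples fewer cells of a type and less RNA per cell cannot be told apart, and the part of the stellate markers in the values of the 8 genes was not tested.

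Most of the rest of the synthesis pathway lay on the same side in AHSC. Of 16 other synthesis genes, 15 had a negative log2 fold change and 1 a positive one, against 47.8% negative among all genes tested. By limma 0 of them were called, against 2.33%. An unadjusted p under 0.05 was found for 4, all lower, against 9.22% lower among all genes tested. In 12 of the 16 both auranofin libraries lay under both controls and in 1 over both, against 23.9% and 26.2% of all genes tested. The median log2 fold change of all 16 was -0.10. The lowest unadjusted p-values among the 16 were those of Nsdhl, a sterol dehydrogenase (log2 fold change -0.18, limma adjusted p = 0.123), and Tm7sf2, a sterol reductase (log2 fold change -0.27, limma adjusted p = 0.147). Of 9 genes that carry or control SREBP, 8 had a positive value and 1 a negative one, with a median of 0.03. Among these 9, 0 were called and 0 had an unadjusted p under 0.05, against 17.8% at that p among all genes tested. Srebf1, the gene of the related factor SREBP-1, had a log2 fold change of 0.09 and Scap one of 0.01, with limma adjusted p-values of 0.35 and 0.933. Insig2, the second Insig gene, stood at 7.66 and 13.7 FPKM in controls and 15.1 and 14.1 FPKM with auranofin (limma adjusted p = 0.365), so that 1 control library stood apart.

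**Figure D2:**
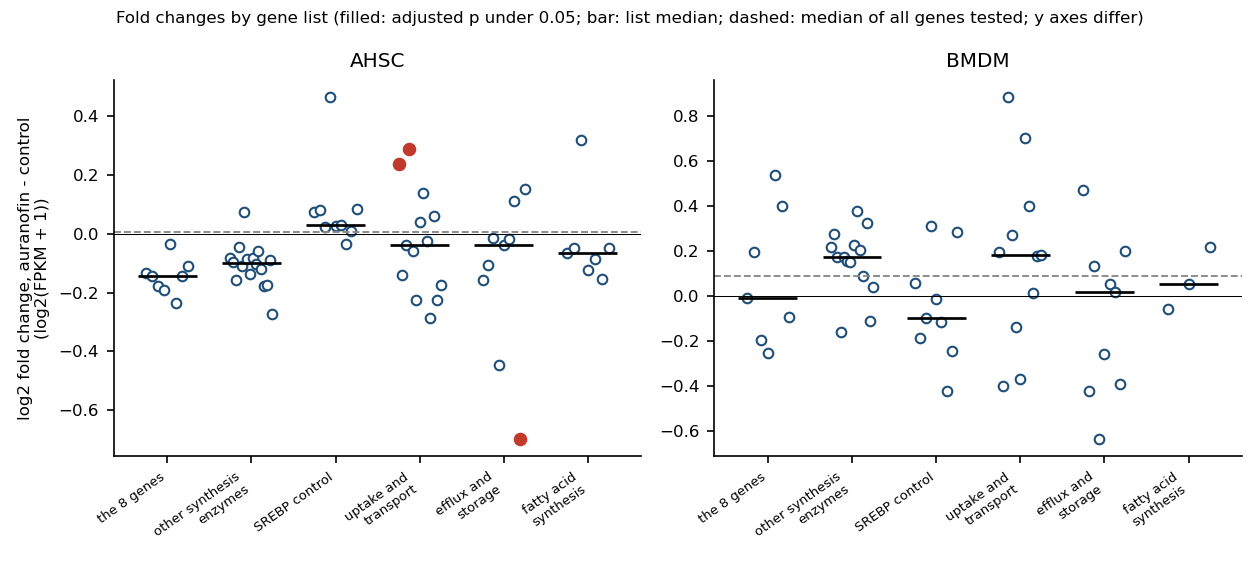
Log2 fold change on the log2(FPKM + 1) scale, auranofin minus control, of each tested gene of 6 lists, with AHSC on the left and BMDM on the right, on separate y axes. Filled red points are called genes (limma adjusted p under 0.05), short bars are list medians and the dashed line is the median of all genes tested; in AHSC all 8 genes and 15 of the 16 other synthesis genes lie under 0.

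Of the lists on sterol handling outside synthesis, 3 genes were called in AHSC, where 2.33% of all genes tested were called. Nr1h3, the gene of the sterol receptor LXRα, was lower with auranofin, at 42.0 and 46.5 FPKM in controls and 27.9 and 25.8 FPKM with auranofin (log2 fold change -0.70, SE 0.063, limma adjusted p = 0.00888). It was the 1 gene called of 9 on export and storage, of which 7 had a negative and 2 a positive value. Of 13 genes of uptake and transport, 2 were called, both higher. Lipa, the lysosomal lipase that frees cholesterol from taken-up esters, stood at 359.5 and 353.1 FPKM in controls and 436.5 and 433.9 FPKM with auranofin (log2 fold change 0.29, SE 0.031, limma adjusted p = 0.0141). Cd36, a scavenger receptor for modified lipoproteins and fatty acids, stood at 206.7 and 197.2 FPKM in controls and 234.1 and 242.5 FPKM with auranofin (log2 fold change 0.24, SE 0.039, limma adjusted p = 0.0464). The Cd36 call was lost with quantile normalization (limma adjusted p = 0.0616), and all 3 calls were lost without the filter on low values, at limma adjusted p-values of 0.0608 for Nr1h3, 0.0723 for Lipa and 0.138 for Cd36. Without trend in eBayes, Lipa and Cd36 were not called, at limma adjusted p-values of 0.0672 and 0.115. Lipa was not called without auranofin replicate 1 (limma adjusted p = 0.063) or 2 (0.0505), and Cd36 was not called without control replicate 2 (0.0695), auranofin replicate 1 (0.104) or auranofin replicate 2 (0.136). Of 7 fatty acid synthesis genes 0 were called by limma and 2 had an unadjusted p under 0.05, against 17.8% of all genes tested. Those 2 were Acss2, an acetyl-CoA synthetase (log2 fold change 0.32, limma adjusted p = 0.0556), and Scd1, a desaturase (log2 fold change -0.15, limma adjusted p = 0.192).

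In BMDM no tested gene of the 8 passed, and the 2 auranofin libraries differed in the size of their values. Insig1 and Cyp51 lay on opposite sides of the controls in the 2 libraries. Lss stayed under the mean of 1 FPKM needed for the test, so 7 genes were tested. Among these 0 were called by limma, where 0.0108% of the 9232 genes tested were called, and none had an unadjusted p under 0.05, against 0.531% of all genes (0.217% lower). None was past 1.5-fold at that p, against 0.152% of all genes. The log2 fold change was negative in 4 and positive in 3 of the 7, against 33.9% negative among all genes tested. Both auranofin libraries lay under both controls in 2 of the 7, against 12.6% of all genes, and over both in 0 of the 7, against 26.3%. The median log2 fold change was -0.006, and that of all genes tested was 0.09, and with centring on the median or quantile normalization the 7 genes had medians of -0.10 and -0.14. Taken by library, the median difference of the 7 genes from the control mean was 0.26 for the first auranofin replicate and -0.23 for the second, while all genes tested had medians of 0.18 and 0.005.

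**Figure D3:**
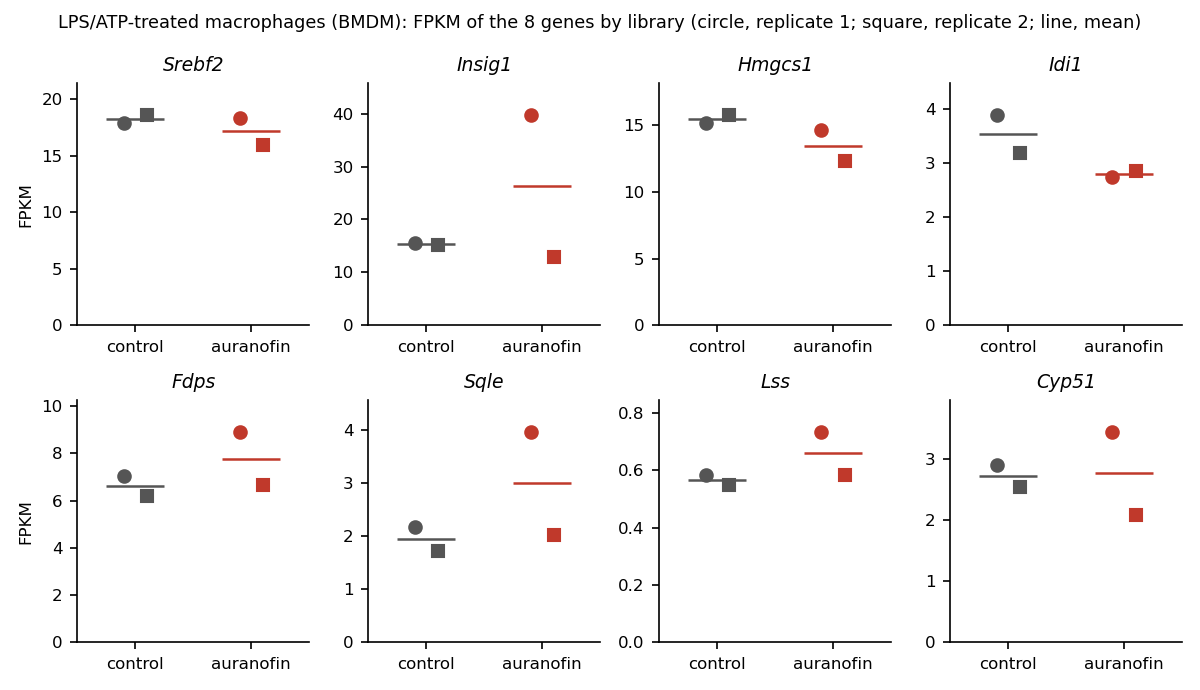
FPKM of the 8 genes in the 4 BMDM libraries, all from cells given LPS and ATP, with a point for each library and a line for the mean of each group. The auranofin points lie far apart for Insig1, at 39.9 and 12.9 FPKM, and for Sqle, at 3.97 and 2.03 FPKM.

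Insig1 had the widest gap between libraries in BMDM. It stood at 15.6 and 15.2 FPKM in controls, while the treated libraries stood at 39.9 FPKM (replicate 1) and 12.9 FPKM (replicate 2), a ratio of 3.08 between the treated libraries. One treated library was above and the other below both controls, and the log2 fold change was 0.54 with a 95% interval from -1.01 to 2.09 (limma adjusted p = 0.721). Srebf2 stood at 17.9 and 18.6 FPKM in controls and 18.4 and 15.9 FPKM with auranofin, with a log2 fold change of -0.09 (SE 0.125). In replicate 1 Srebf2 lay between the controls, and in replicate 2 it lay under both.

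The enzymes in BMDM varied in the same way between libraries. Sqle, of the sterol branch, stood at 2.17 and 1.73 FPKM in controls and 3.97 and 2.03 FPKM with auranofin, so that replicate 2 lay between the controls. Cyp51 stood at 2.90 and 2.54 FPKM in controls and 3.44 and 2.08 FPKM with auranofin, with 1 treated library on each side of the controls. Lss stood at 0.583 and 0.549 FPKM in controls and 0.735 and 0.585 FPKM with auranofin, the second of these barely over the higher control. These low levels rest on few fragments, an estimated 71 for Lss and 131 for Sqle in the library with the fewest, for which counting error alone gives coefficients of variation of 11.9% and 8.7%. Fdps stood at 7.02 and 6.19 FPKM in controls and 8.90 and 6.64 FPKM with auranofin. Hmgcs1 and Idi1 were lower in both treated libraries, with Hmgcs1 at 15.2 and 15.8 FPKM against 14.6 and 12.3 FPKM, and Idi1 at 3.89 and 3.17 FPKM against 2.73 and 2.85 FPKM. Their log2 fold changes were -0.19 (SE 0.133) for Hmgcs1 and -0.25 (SE 0.142) for Idi1, each with a limma adjusted p = 0.721.

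**Figure D4:**
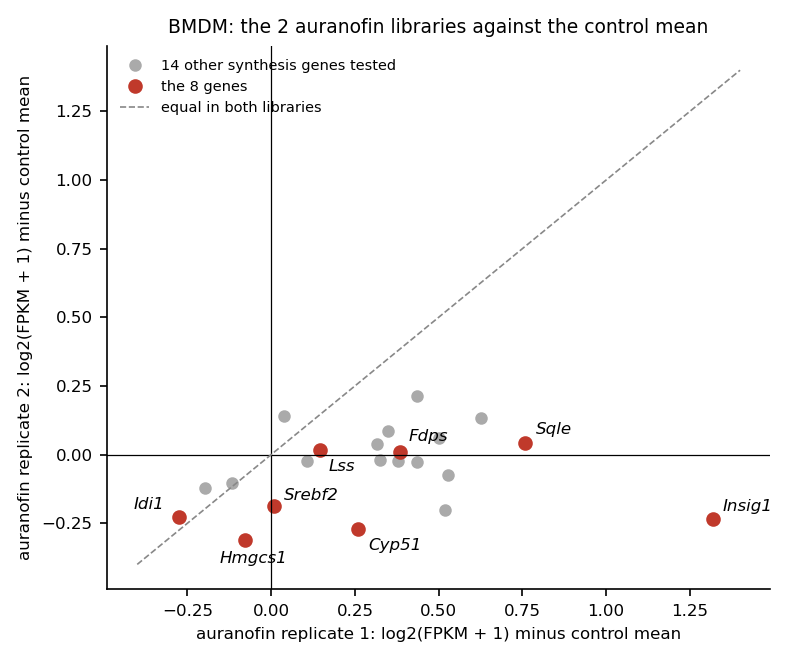
Difference from the control mean on the log2(FPKM + 1) scale in BMDM auranofin replicate 1 (x axis) and replicate 2 (y axis), for the 8 genes (red) and 14 other synthesis genes tested (grey), with a dashed line where both libraries are equal. Insig1 lies at 1.32 in replicate 1 and -0.24 in replicate 2, and most points lie below the dashed line.

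Auranofin replicate 1 lay above both controls in 5 of the 8 genes and below both in 2, and replicate 2 lay above both in 1 and below both in 5. Among all genes tested, replicate 1 lay above both controls in 64.0% and below both in 29.6%, and replicate 2 in 37.6% and 34.9%, so the share of the 8 above both controls in replicate 1 was close to that of all genes. Without replicate 2, Insig1 (log2 fold change 1.32, limma adjusted p = 0.000102), Sqle (0.76, limma adjusted p = 0.00435) and Fdps (0.38, limma adjusted p = 0.0154) would be called, but so would 6051 genes of the whole table. Without replicate 1, none of the 8 genes was called, and the log2 fold change of Insig1 was -0.24. The summed level of 8 macrophage markers was 6170 and 5984 FPKM in controls and 6758 and 6075 FPKM with auranofin, and that of 7 stellate markers was 7.16 and 6.33 against 5.20 and 9.91 FPKM. Replicate 1 thus had the highest macrophage sum and the lowest stellate sum. Lyz2 was the largest part of that macrophage sum, at 4278 FPKM. Of the 8 macrophage markers, 3 stayed under 1 FPKM in all libraries. In both auranofin libraries 2 lay higher and 1 lower than both controls, against 26.3% and 12.6% of all genes tested. The lower one was Adgre1, at 399.9 and 418.2 FPKM in controls and 359.2 and 395.1 FPKM with auranofin. Of the 7 stellate markers, 3 also stayed under 1 FPKM throughout. S100a8 stood at 54.9 and 58.5 FPKM in BMDM controls and 85.5 and 81.0 FPKM with auranofin (log2 fold change 0.55, limma adjusted p = 0.721), higher in both treated libraries. The 3 other blood markers beside it stayed under 1 FPKM in all BMDM libraries. Of the 4, 1 lay lower in both treated libraries and 2 higher, against 12.6% and 26.3% of all genes tested. The lower one, Cd79a, and 1 of the higher, Ly6g, were among those under 1 FPKM. The part of these markers in the values of the 8 genes was not tested.

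Other pathway genes in BMDM also gave no call. Of 14 other synthesis genes tested, 12 had a positive and 2 a negative log2 fold change, against 33.9% negative among all genes tested. Their median was 0.18, with per-library medians of 0.36 and -0.02. Pmvk, phosphomevalonate kinase, stood at 3.18 and 2.96 FPKM in controls and 4.50 and 3.71 FPKM with auranofin (log2 fold change 0.33, limma adjusted p = 0.721), and Mvd, the decarboxylase that follows it, at 1.03 and 1.06 FPKM against 2.15 and 1.24 FPKM. Srebf1 stood at 9.07 and 10.9 FPKM in controls and 14.2 and 10.7 FPKM with auranofin, and Scap at 14.03 and 15.78 FPKM against 10.95 and 14.03 FPKM. Insig2 stood at 13.97 and 7.01 FPKM in controls and 11.99 and 13.24 FPKM with auranofin. Its groups overlapped and 1 control library stood apart. Over the lists beside the 8 genes, limma called 0 of 46 genes tested, with 1 at an unadjusted p under 0.05. Of all genes tested, 0.0108% were called and 0.531% had an unadjusted p under 0.05. Of the genes called in AHSC, Nr1h3 stood at 13.9 and 14.5 FPKM against 8.45 and 13.2 FPKM in BMDM, Lipa at 153.4 and 149.5 against 222.5 and 150.4 FPKM, and Cd36 at 266.5 and 261.2 against 317.4 and 287.8 FPKM. Of the fatty acid synthesis genes, Fasn stood at 1.10 and 0.993 FPKM against 1.77 and 1.04 FPKM, and Acly at 22.6 and 22.9 FPKM against 24.8 and 22.6 FPKM.

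**Figure D5:**
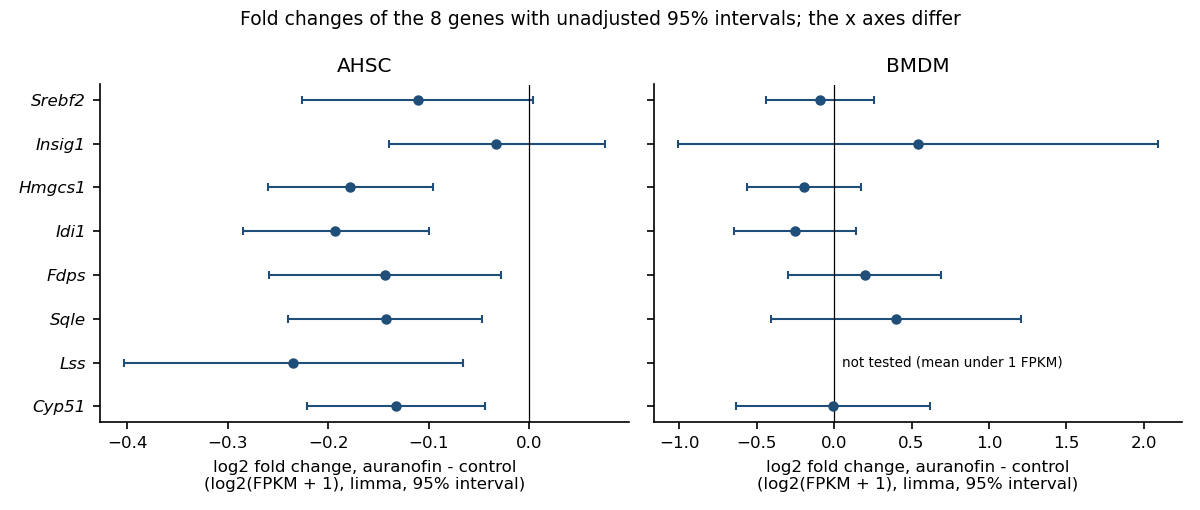
Log2 fold change on the log2(FPKM + 1) scale, auranofin minus control, of the 8 genes in AHSC and of the 7 tested in BMDM, with bars for the 95% interval from limma and separate x axes. The AHSC intervals lie between -0.40 and 0.08, and the BMDM intervals reach from -1.01 to 2.09.

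The precision of the comparison differed between the cell types. Standard errors of the log2 fold changes ran from 0.033 to 0.068 in AHSC and from 0.125 to 0.559 in BMDM, so a difference of the size seen in AHSC was not detectable in BMDM. The tables were normalized separately, and cells, auranofin dose and time all differ between them, so levels are set side by side with no test. The BMDM controls had also been given LPS and ATP, and the AHSC controls had not. Control levels in FPKM were higher in AHSC for all 8 genes, by a ratio of 36.8 for Lss, 18.8 for Fdps, 17.9 for Sqle, 11.7 for Cyp51, 6.90 for Idi1, 5.17 for Insig1, 4.38 for Hmgcs1 and 2.50 for Srebf2. In AHSC controls the FPKM levels, which are per length, ran in the order Fdps, Insig1, Hmgcs1, Srebf2, Sqle, Cyp51, Idi1 and Lss, and the control libraries of each pair of neighbours did not overlap. In BMDM controls the order was Srebf2, Hmgcs1, Insig1, Fdps, Idi1, Cyp51, Sqle and Lss, and Hmgcs1 and Insig1 were the neighbours whose libraries overlapped.

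Across the 8 libraries, the mean of the tested genes' differences from each table's control mean was most similar to that of Mfge8 (Pearson r = 0.99), Proser1 (0.989), Dock5 (0.986), Vps26b (0.986) and Actr1b (0.982), out of 8901 genes outside the lists. The libraries are shared by all these genes, and the correlation is a description. Mfge8, a secreted bridging protein for apoptotic cells, differed from its control mean by -0.07 and -0.08 on the log2 scale in the AHSC auranofin libraries and by 0.24 and -0.09 in the BMDM auranofin libraries.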

How the data were processed

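Polyadenylated RNA from the 8 libraries had been sequenced with a stranded kit. The authors deposited FPKM values in 1 table for AHSC and 1 for BMDM. Per the labels, the reads were handled with FastQC 0.11.7, Trimmomatic 0.38, HISAT2 2.1.0, StringTie 1.3.4d and the mm10 build, and filters are not given in the sources used here. FPKM carries no counts, so depth was estimated from the steps of low values and transcript lengths, and covers counting error only. On the log2(FPKM + 1) scale, and for genes averaging 1 FPKM or more in the 4 libraries of a table, limma 3.58.1 (lmFit, eBayes with trend, R 4.3.3) compared auranofin with control in each table alone, after a test on simulated data. A gene was called at a Benjamini-Hochberg adjusted p under 0.05 over all genes tested. The genes and lists were chosen with earlier results of these data known. The text names the 8 genes, other listed genes called in either table, for lists with none called the 2 of lowest unadjusted p in each table, Insig2, Srebf1 and Scap, and the 5 genes of most similar pattern. Some genes that the rule names are not reported here. Cell type markers are named beside them. Alternatives were a pseudocount of 0.1, no filter, a minimum mean of 5 FPKM, eBayes without trend, centring on the median, quantile normalization, the replicate number as a block and each library left out. Python 3.11.15, pandas 2.3.3, matplotlib 3.10.9 and BLAST 2.17.0 were also used.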

Additional observations from a re-analysis of the deposited data

Results flagged for a closer look

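For 3 synthesis genes, every auranofin library lay under the controls in AHSC and above them in BMDM. The ratio of the auranofin mean to the control mean was 0.841 in AHSC and 1.17 in BMDM for Lss, 0.879 and 1.08 for Nsdhl, and 0.880 and 1.34 for Pmvk. Whether AHSC and BMDM differ was not tested: each table was normalized on its own, dose and time differ, and only BMDM were given LPS and ATP. Lss lies under 1 FPKM in BMDM.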

How the results depend on the processing

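With 2 libraries a group and only FPKM values, leaving out a library leaves a lone sample that is assumed to vary like the other group. In AHSC the calls among the 8 genes ran from 0 to 1 with a library left out, and their median log2 fold change from -0.18 to -0.12. The 3 calls among the other listed genes in AHSC became 0 without the filter, 5 at a mean of at least 5 FPKM, 1 with eBayes without trend, and 1 to 5 with a library left out. In BMDM, with a library left out, calls among the 8 genes ran from 0 to 3, genes past 1.5-fold from 0 to 2, and calls among the other listed genes from 0 to 33, the highest each without auranofin replicate 2. Signs turned with a library left out for Insig1 in AHSC (-0.081 to 0.015), and in BMDM for Cyp51 (-0.27 to 0.26, with 0.06 without control replicate 1), Insig1 (-0.24 to 1.32), Srebf2 (-0.188 to 0.008) and Lipa (-0.01 to 0.55). Calls over all genes, 283 in AHSC and 1 in BMDM, came in AHSC to 49 without the filter and 129 without trend, and in BMDM to 6051 without auranofin replicate 2. With the replicate number as a block, calls stayed at 0 among the 8 genes in each cell type and at 3 among the other listed genes in AHSC, without Cd36 (limma adjusted p = 0.0656). Deviations of same-numbered libraries correlated at 0.109 in AHSC and -0.055 in BMDM, with 2 pairs each, so the numbers were not taken to pair the libraries. The causes of these shifts were not tested.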
